A study of Bos taurus with 55 samples.

Results

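The genes of follistatin (FST), myostatin (MSTN), the inhibin beta A subunit (INHBA), the inhibin alpha subunit (INHA) and the activin receptor type IIB (ACVR2B) were followed in biopsies of the lactating bovine mammary gland. They are 5 of the 6636 genes that could be named on the array, and each was read by 1 probe set, found through its RefSeq transcript. The set was chosen on earlier results of these same arrays, from the changes between oil and control. Levels and changes from control to oil, and whether such a change passed the threshold, are therefore given for these genes as a description. Tests are given for the comparisons between oils and for relations over cows. Those of the difference of the change between oils use the same changes, so they are not independent of how the set was chosen. Calls of further genes for oil against control are a description too, because their lists were chosen with earlier results known.

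Holstein-Friesian cows in mid-lactation were fed an oil in the concentrate of a silage-based ration, at 2.7%, and grazed by day, for 23 days (period I). The oil was from rapeseed, which gives oleic acid, from soybean, a source of linoleic acid, from linseed, whose main fatty acid is alpha-linolenic, or a mixture with equal parts of each, with 7 cows on each diet. All cows were then fed the same ration without added oil for 28 days (period II, the control diet). Biopsies were taken when a period ended, on average on day 176 and day 204 of lactation. They gave 28 arrays for oil and 27 for control, because cow 28 on linseed oil had no array in period II. Oil always came before control, so diet, order and stage of lactation cannot be told apart.

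Follistatin is a secreted protein that binds activins and myostatin and keeps them from their receptors. Activins are dimers of inhibin beta subunits, and the pairing of a beta with the alpha subunit gives inhibin, which opposes activin at the receptor. Activin and myostatin bind the type II receptors ACVR2A and ACVR2B, which recruit type I receptors that phosphorylate SMAD2 and SMAD3. Myostatin is best known from skeletal muscle, whose growth it restrains, and loss of its function gives double-muscled cattle. In mice, loss of the inhibin beta B subunit impairs the growth of mammary ducts and alveoli.

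The arrays carried the profile of a milk-secreting gland. Of the 55 arrays, 7 stood apart, with a mean correlation under 0.96 with the rest. The mean log2 intensity of 8 milk synthesis genes (among them the caseins CSN1S1 and CSN3, LALBA and PAEP) ran from 13.16 to 13.54 on the 48 other arrays and from 10.96 to 13.17 on these 7. They came from 6 cows (cows 5, 10 and 12 in period I, and cows 1, 2, 5 and 15 in period II), and results that rest on these cows are given with and without them. Period and array series nearly coincided as well: the array names carry 2 prefixes, with 25 arrays of the first and 3 of the second in period I, and 2 and 25 in period II. In a bulk biopsy, fewer cells of a type and less RNA per cell cannot be told apart.

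The FST signal was higher on oil than on the control diet in 21 of 27 cows. Its log2 intensity in period I was lowest at 3.56, had a median of 5.86 and reached 7.80, with a mean of 5.88 ± 1.07 (SD, n = 28). In period II it was lowest at 2.60, had a median of 5.18 and reached 6.37, with a mean of 5.09 ± 0.95 (SD, n = 27). The ranges of the periods overlapped widely, so the difference is seen within cows. The mean change within a cow was 0.76 ± 0.22 log2 units (SE, n = 27), or 1.70-fold higher on oil. Markers of other cells moved between the same periods, where 15.6% of all probe sets were called lower on oil and the median change was 0.03. Called lower were 6 of 9 fibroblast and matrix genes (list median -0.44) and 4 of 9 luminal epithelial genes (-0.47). Of 8 macrophage genes 2 were called lower (-0.34), and 0 were higher in each list. The part of these markers in the FST change was not tested beyond the relations over cows given with the arrays that stood apart. The cows in which FST was lower on oil were cows 10 and 12 on rapeseed oil, cow 17 on soybean oil, cows 21 and 25 on linseed oil and cow 11 on the mixture.

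**Figure D1:**
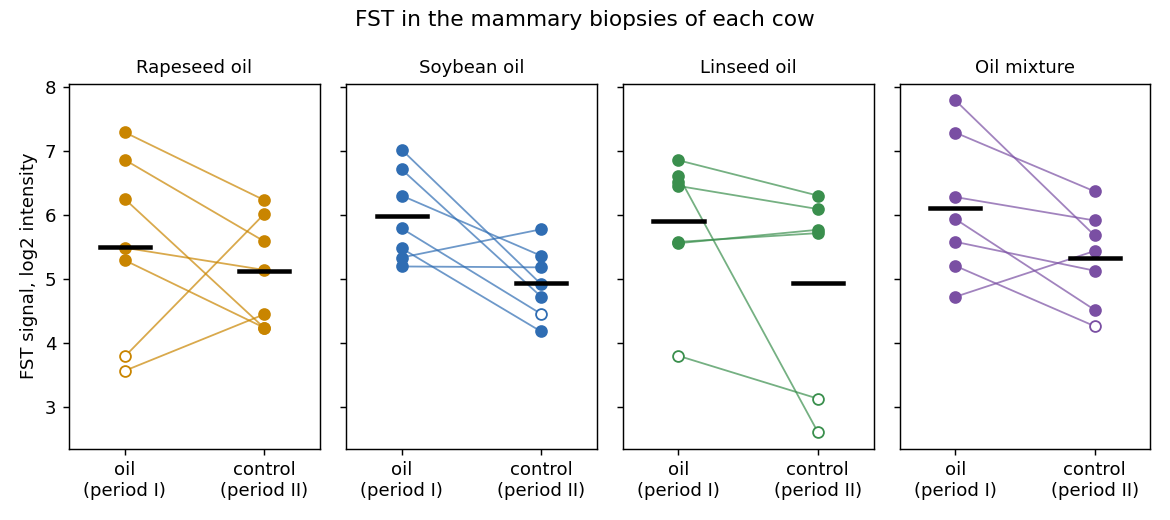
FST signal (log2 intensity, vertical axis) in period I on oil and in period II on the control diet, a panel for each period I diet. Lines join the arrays of a cow, black bars are group means and open circles are arrays that stood apart. Lines fall from oil to control in 21 of 27 cows.

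On rapeseed oil FST ran from 3.56 through a median of 5.49 to 7.29 in period I, and from 4.23 through 5.14 to 6.23 in period II. The rapeseed groups overlapped, and the change was 0.38 ± 0.44 (SE, n = 7, higher in 5 cows). Both cows with a lower value, cow 10 (-0.88) and cow 12 (-2.23), had a period I array apart, and without them the change was 1.15 ± 0.34, higher in 5 of 5 cows. On soybean oil FST ran from 5.20 through 5.79 to 7.02 in period I and from 4.18 through 4.92 to 5.78 in period II, a change of 1.04 ± 0.44 (n = 7, higher in 6 cows). On the oil mixture it ran from 4.72 through 5.94 to 7.80 and from 4.26 through 5.44 to 6.37, a change of 0.79 ± 0.44 (n = 7, higher in 6 cows). FST was thus higher on oil in all but 1 cow on each of soybean oil and the mixture, although the groups overlapped. Cow 26 on soybean oil is counted as higher with a change of 0.01.

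On linseed oil FST ran from 3.80 through a median of 6.46 to 6.86 in period I and from 2.60 through 5.74 to 6.30 in period II. The change was 0.87 ± 0.48 (SE, n = 6, higher in 4 cows), and 1 animal carried most of it. Cow 15 went from 6.62 on oil to 2.60 on the control diet, a change of 4.01, and its period II array stood apart. Without cows 5 and 15, both with an array apart, the linseed oil change was 0.14 ± 0.38, higher in 2 of 4 cows. Leaving out arrays that stood apart therefore raised the FST change on rapeseed oil and lowered it on linseed oil.

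FST did not differ between the oils past the threshold in any of the tests. The change gave p = 0.755 in limma's moderated F test across the 4 diets (adjusted p = 0.976). The level while the oils were fed gave p = 0.728 (limma, adjusted p = 1.00), and the level in the same cows later on the control diet p = 0.851 (limma, adjusted p = 0.981). In period I the widest gap between oils was rapeseed oil minus the mixture, at -0.61 (95% interval -1.76 to 0.54), and the interval for soybean minus linseed oil ran from -1.09 to 1.22. FST differences of 1 log2 unit between oils lie within these intervals.

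FST was low on every array that stood apart. In period I the 3 such arrays had FST levels from 3.56 to 3.80, and the 25 others from 4.72 to 7.80, without overlap. In period II the 4 such arrays had levels from 2.60 to 4.45, which overlapped with the range of 4.18 to 6.37 of the 23 others. All 7 lay under the median of their period for FST and for the milk synthesis genes, and above it for the list means of fibroblast and matrix genes (9 measured), luminal epithelium (9) and macrophages (8). Over the 21 other cows the FST change was 0.80 ± 0.17 (SE), higher in 17, so the change was as large without these arrays. Among those 21 cows the FST change and the change of the milk synthesis list mean gave Pearson's r = 0.0939 (permutation p = 0.688, adjusted 0.927), while Spearman's rho was 0.0338 (permutation p = 0.885, adjusted 0.919), and r was 0.160 without the 2 cows farthest from the median. The marker list closest to FST was luminal epithelium, whose change gave r = -0.479 (permutation p = 0.0288, adjusted 0.421) with rho = -0.426 (permutation p = 0.0556, adjusted 0.449), and r was -0.382 without the farthest 2. Fibroblast and matrix genes gave r = -0.316 (permutation p = 0.164, adjusted 0.727) with rho = -0.382 (permutation p = 0.0869, adjusted 0.449), and r was -0.466 without the farthest 2. Neither relation held after adjustment.

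**Figure D2:**
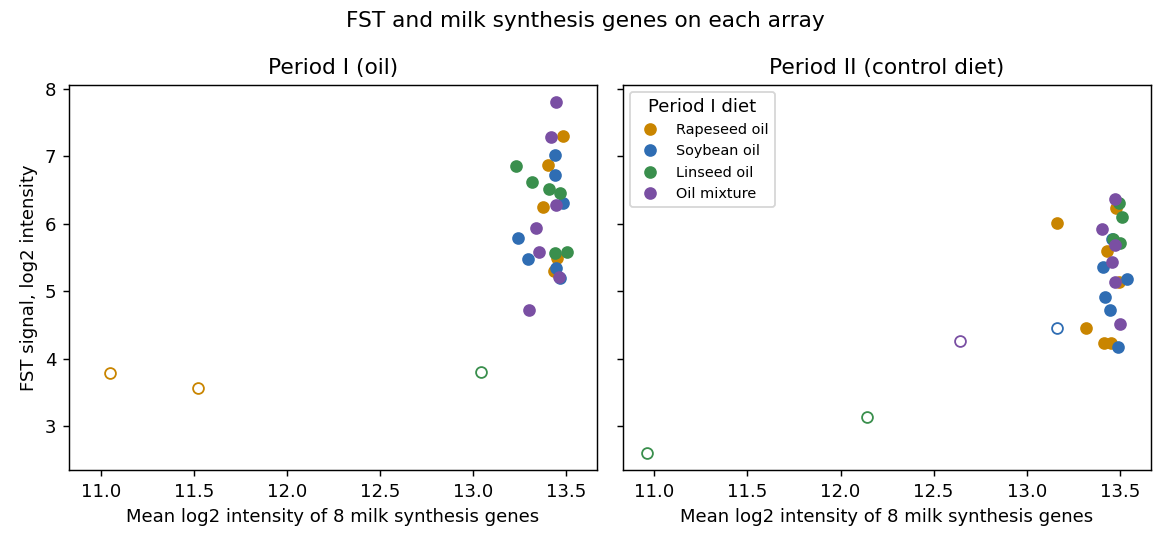
FST signal (vertical axis) against the mean of 8 milk synthesis genes (horizontal axis), both in log2 intensity, for each array, coloured by period I diet. Filled points lie between 13.16 and 13.54 on the horizontal axis with FST spread from 4.18 to 7.80, and the open circles (arrays apart) lie at low values of FST, from 2.60 to 4.45.

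Of the 5 genes, FST was the 1 called for oil against control at an adjusted p under 0.05, where 34.4% of all 10680 probe sets were called (18.8% higher and 15.6% lower in the oil period). Nothing is read from that count, because this contrast served to choose the genes. With the array name prefix in the fit 0 of 5 were called, and the FST change was 0.86 ± 0.52, which rests on the 5 cows with both arrays of 1 prefix. With array number as a covariate, in a fit without the cow, 0 of 5 were called, and the FST change was 1.12 ± 0.56. All period I arrays have lower numbers than those of period II, so number and period cannot be fully separated. Within the first prefix alone, also without the cow, the FST change was 1.47 ± 0.78, set against 2 control arrays that both stood apart. Within the second it was 0.92 ± 0.55, from 3 oil arrays. The FST value was above 0 in each of these fits, with wider errors.

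MSTN varied widely from cow to cow. Its log2 intensity in period I was lowest at 1.42, had a median of 3.56 and reached 5.97 (mean 3.63 ± 1.15, SD, n = 28). In period II it was lowest at 1.43, had a median of 2.85 and reached 5.66 (mean 2.99 ± 1.09, SD, n = 27). The periods covered nearly the same range. The change was 0.69 ± 0.29 log2 units (SE, n = 27), higher on oil in 18 cows and lower in 9. The average MSTN change was 1.33 ± 0.68 with the array name prefix in the fit, which rests on 5 cows. It was 1.45 ± 0.76 within the first prefix, against 2 control arrays that both stood apart, and 0.12 ± 0.67 within the second, from 3 oil arrays. The errors are wide, and whether the MSTN change differed between the array series was not tested. Single cows had changes from -1.99 (cow 12, rapeseed oil) to 3.93 (cow 17, soybean oil).

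The largest MSTN change was that on soybean oil. There MSTN ran from 1.90 through a median of 4.44 to 5.97 in period I and from 1.43 through 2.36 to 3.51 in period II. All but 1 of the period I values (cow 24, 1.90) lay above every value of these cows in period II. The soybean oil change was 1.82 ± 0.54 (SE, n = 7), or 3.54-fold, and MSTN was higher on oil in 6 of 7 cows. On rapeseed oil the change was 0.20 ± 0.54 (4 of 7 cows higher, from -1.99 to 3.65). On linseed oil it was 0.67 ± 0.58 (4 of 6, from -1.39 to 2.61) and on the mixture 0.05 ± 0.54 (4 of 7, from -1.65 to 1.58). For the mixture the first prefix alone gave 1.52, set against the control array of cow 1 only, which stood apart. The second prefix gave -2.13, with the oil array of cow 14 only. On these 3 diets the cows went both ways by more than 1 log2 unit.

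**Figure D3:**
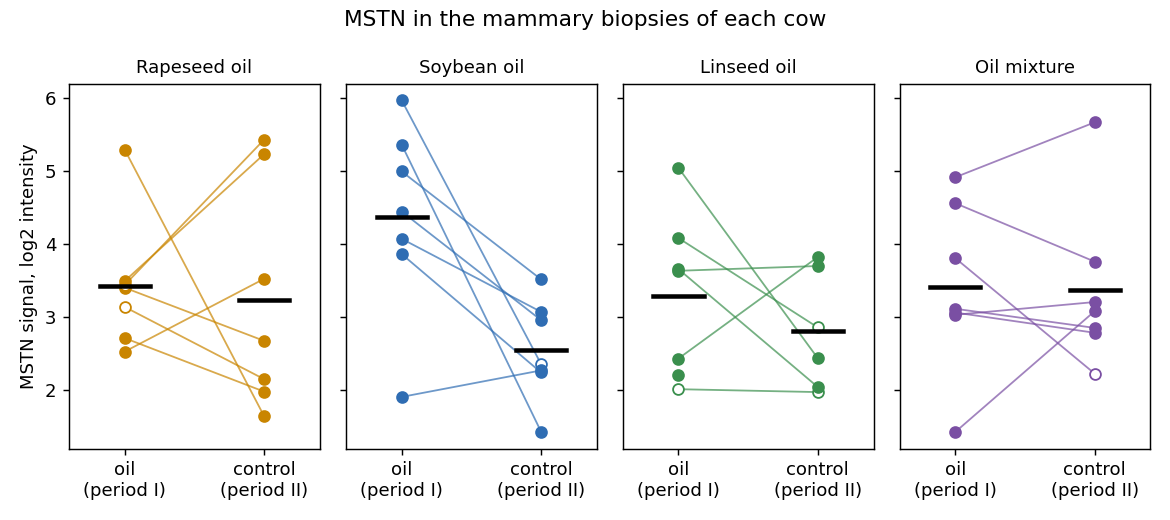
MSTN signal (log2 intensity, vertical axis) in period I and period II, a panel for each period I diet. Lines join the arrays of a cow, black bars are group means and open circles are arrays that stood apart. On soybean oil 6 of 7 lines fall from oil to control, and on the other diets lines cross in both directions.

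MSTN was the 1 of 5 genes called on soybean oil, where 13.5% of probe sets were called. Of the 5 genes 0 were called on rapeseed oil, linseed oil or the mixture, where 3.88%, 1.29% and 0.15% of probe sets were, and nothing is read from these counts either. Without the 6 cows with an array apart the MSTN change on soybean oil was 1.53 ± 0.57 and was not called, and FST (0.99 ± 0.31) was called in its place. Within the first prefix the MSTN change on soybean oil was 2.00 ± 1.13, set against the control array of cow 2 only, which stood apart. Within the second it was 1.86 ± 1.14, with the oil array of cow 9 only. Neither fit was paired by cow.

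The difference of the MSTN change between oils did not pass (limma moderated F, p = 0.110, adjusted p = 0.948). Soybean oil minus mixture was 1.77 (95% interval 0.20 to 3.34, adjusted p = 0.864), and rapeseed minus soybean oil was -1.63 (-3.20 to -0.06, adjusted p = 0.882). While the oils were fed, MSTN on soybean oil was 1.08 above linseed oil (95% interval -0.10 to 2.25) and 0.96 above the mixture (-0.22 to 2.13), and limma's F test over the diets gave p = 0.231 (adjusted p = 1.00). On the control diet the former diets gave p = 0.455 for MSTN (limma, adjusted p = 0.976). Both intervals in period I include 0 and a difference of 2 log2 units.

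Most markers of skeletal muscle, where MSTN is best known, had low signals in the biopsies. Of 14 listed, 11 were measured, and their summed intensity ran from 40.9 to 128 in period I and from 42.1 to 133 in period II. ACTA1, the actin of muscle fibres, had a mean log2 intensity of 2.08 in period I and 2.00 in period II. MYOG, a regulator of muscle differentiation, had 1.96 and 1.95. DES, which smooth muscle also makes, had the highest means of the list, 3.07 and 3.51, reached 6.65 on 1 array and was lower on oil (change -0.47, adjusted p = 0.0683). In the oil period 3 of the 11 were called higher and 0 lower, against 18.8% and 15.6% of all probe sets (list median 0.09, all probe sets 0.03). They were the myosin genes MYL1 (0.38) and MYH1 (0.31) and the troponin TNNC2 (0.16). On soybean oil MYL1 (0.52, adjusted p = 0.0037) and the muscle creatine kinase CKM (0.34, adjusted p = 0.0485) were called higher, while DES had -0.995 (adjusted p = 0.0912). On that oil the mean changes of the fibroblast and luminal lists were -0.98 and -0.70, and the part of these markers in the MSTN change was not tested beyond the relations over cows. Over the 21 cows without an array apart, the MSTN change and the change of this list's mean gave r = 0.0663 (permutation p = 0.774, adjusted 0.954) with rho = 0.118 (permutation p = 0.608, adjusted 0.919), and r was -0.0420 without the 2 farthest cows.

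INHBA, the subunit that makes activin A, stayed within a narrow range over all cows. Its log2 intensity ran from 1.76 through a median of 2.30 to 2.84 in period I and from 1.88 through 2.33 to 3.17 in period II, and the change was 0.04 ± 0.08 (SE, n = 27, higher in 15 cows). The values of the oils went different ways. On rapeseed oil the INHBA change was 0.27 ± 0.14 (higher in 6 of 7 cows) and on soybean oil 0.23 ± 0.14 (6 of 7). On linseed oil it was -0.12 ± 0.15 (lower in 4 of 6) and on the mixture -0.26 ± 0.14 (lower in 6 of 7), with cow 14 at 0.78 against the rest of its group.

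This difference between oils gave p = 0.0309 for INHBA in limma's moderated F test and did not hold after adjustment over all probe sets (adjusted p = 0.948). Rapeseed oil minus mixture was 0.52 (95% interval 0.13 to 0.92, adjusted p = 0.970) and soybean oil minus mixture 0.48 (0.08 to 0.88, adjusted p = 0.862). With the 6 cows that had an array apart left out, the F test gave p = 0.101. In period I the INHBA means were 2.46 on rapeseed, 2.42 on soybean, 2.29 on linseed oil and 2.27 on the mixture (limma, p = 0.408, adjusted p = 1.00). In period II, on the control diet, the same cows had the opposite order, with 2.19, 2.20, 2.43 and 2.52 (limma, p = 0.0548, adjusted p = 0.976). The former diets thus lay farther apart than the oils while they were fed, and neither test passed.

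INHA, which turns activin subunits into inhibin, also had small changes. Its log2 intensity ran from 1.14 through a median of 2.05 to 2.68 in period I and from 1.15 through 1.88 to 2.71 in period II. The change was 0.07 ± 0.08 (SE, n = 27, higher in 15 cows), with 0.06 ± 0.15 on rapeseed oil, 0.12 ± 0.15 on soybean oil, 0.23 ± 0.17 on linseed oil and -0.10 ± 0.15 on the mixture. Between oils the change gave p = 0.547 (limma, adjusted p = 0.963), and the level gave p = 0.791 in period I and p = 0.806 in period II (limma, adjusted p = 1.00 and 0.979). As with FST, all 7 arrays apart lay under the median of their period for INHA. They had 1.14 to 1.93 in period I and 1.15 to 1.83 in period II, and the other arrays had 1.47 to 2.68 and 1.59 to 2.71, so the ranges overlapped.

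ACVR2B, the receptor that binds myostatin and activin, had its largest difference on rapeseed oil, where every cow changed array name prefix between the periods. Over all cows its log2 intensity ran from 1.95 through a median of 2.63 to 3.31 in period I and from 1.95 through 2.45 to 3.57 in period II, a change of 0.10 ± 0.09 (SE, n = 27, higher in 16). On rapeseed oil ACVR2B ran from 2.19 through 2.97 to 3.29 and from 1.95 through 2.22 to 2.71, a change of 0.52 ± 0.17, higher in 6 of 7 cows. Without cows 10 and 12 it was 0.39 ± 0.18. With the prefix in the fit it was -0.0023 ± 0.26, and the value farthest from 0 was that on soybean oil (-0.54 ± 0.22). That fit takes the prefix effect from cows on the other diets, so it cannot show whether the rapeseed oil difference is absent. Without the prefix the changes were 0.03 ± 0.18 on linseed oil, 0.03 ± 0.17 on the mixture and -0.17 ± 0.17 on soybean oil.

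The ACVR2B change gave p = 0.0490 between oils in limma's moderated F test and did not hold after adjustment (adjusted p = 0.948), with rapeseed minus soybean oil at 0.69 (95% interval 0.20 to 1.18, adjusted p = 0.882). With the 6 cows left out the F test gave p = 0.271. With the array name prefix in the fit the average ACVR2B change was -0.43 ± 0.19, the opposite direction. That value rests on the 5 cows with both arrays of 1 prefix, none of them on rapeseed oil. Among them, cows 1 and 2 had a control array apart. The levels gave p = 0.162 in period I and p = 0.171 on the control diet (limma, adjusted p = 1.00 and 0.976).

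**Figure D4:**
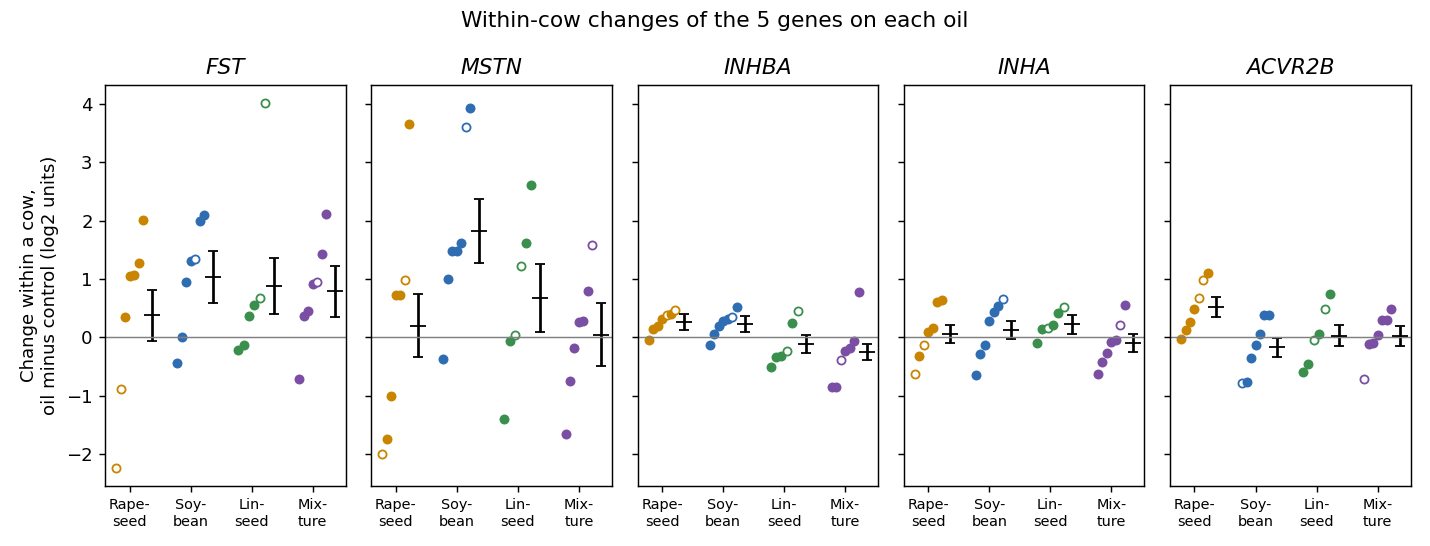
Within-cow change from the control to the oil period (log2 units, vertical axis) for each gene and period I diet. Points are cows, open where the cow had an array apart, and the black bar and whiskers give the mean and its SE from the fit. FST points lie mostly above 0, MSTN points span from -1.99 to 3.93, and INHBA points lie mostly above 0 on rapeseed and soybean oil and below 0 on linseed oil and the mixture.

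Of all probe sets, 0.0% were called for the difference of the change between oils, 0.0% for the diets within period I and 0.0% for the former diets within period II, so the 0 of 5 members called in each equals the share of the whole array. By limma, 486, 277 and 397 of the 10680 probe sets had an unadjusted p under 0.05 in these tests. FST alone of the 5 had a mean log2 intensity above the median of all probe sets (3.34), and the changes of INHBA, INHA and ACVR2B are small differences of dim signals.

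Relations over the 21 cows without an array apart numbered 31. They joined the changes of the 5 genes with each other, the FST and MSTN changes with the marker lists, and each gene's levels in both periods. Cows of all diets were pooled and diet means were not removed, so differences between diets can enter these values. None of these relations held after adjustment. The closest was that of MSTN with ACVR2B, where r was -0.624 (permutation p = 0.00244, adjusted 0.0756) with rho at -0.564 (permutation p = 0.00865, adjusted 0.268), and r was -0.608 without the 2 farthest cows. The FST and MSTN changes gave r = -0.132 (permutation p = 0.569, adjusted 0.921) with rho = -0.105 (permutation p = 0.649, adjusted 0.919), and r was -0.0141 without the farthest 2. A cow's FST levels in the periods gave r = 0.386 (permutation p = 0.0839, adjusted 0.519) with rho = 0.391 (permutation p = 0.0804, adjusted 0.449), with r = 0.435 without the farthest 2. A cow's MSTN levels gave r = -0.0361 (permutation p = 0.877, adjusted 0.954) with rho = -0.181 (permutation p = 0.431, adjusted 0.919), with r = 0.104 without the farthest 2. A relation between the biopsies of a cow was thus not detected for MSTN.

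Other named genes were ranked by the Pearson correlation of their change with that of a member, as a description over cows whose values share arrays. For FST the closest over 27 cows were JPT1 (r = 0.779), the glycerol kinase GK (0.762) and the chaperone gene DNAJC12 (0.751). Over the 21 cows without an array apart they were PARP11 (0.726), ALG10 (0.716) and the cytokine TNF (0.664), so none of the first 3 names recurred. For MSTN they were RABGGTB (0.705), FAM32A (0.636) and LIM2 (0.625) over 27 cows, and ZNF444 (0.777), RABGGTB (0.690) and PUM3 (0.674) over 21, with RABGGTB in both. For INHBA they were MBLAC2 (0.637), USB1 (0.621) and the superoxide dismutase SOD1 (0.618) over 27 cows, and C4H7orf25 (0.783), ACADS (0.764) and the chemokine CCL3 (0.751) over 21. For INHA they were CNGB1 (0.798), the prothrombin gene F2 (0.775) and the retinoid receptor RXRG (0.774) over 27 cows, and CNGB1 (0.816), ZNF821 (0.804) and BRCA1 (0.770) over 21, with CNGB1 in both. For ACVR2B they were UBAC1 (0.647), RNF220 (0.642) and POU2F1 (0.622) over 27 cows, and MINDY1 (0.760), SSBP4 (0.640) and RP1 (0.628) over 21.

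The wider system of activin, TGF-beta and BMP signalling was read through 41 further genes from 6 lists, of which 6 were called higher and 6 lower in the oil period by limma (29.3%, against 34.4% of all probe sets). The lists were chosen with earlier results of these arrays known, so the calls and adjusted p values are given as a description. Without the 6 cows with an array apart the counts were 6 and 7, and with array number as a covariate 1 and 2. Among the brighter probe sets alone 18 of these genes remained, with 0 called higher and 4 lower. Among 8 other ligands, 2 rose and 0 fell (list median with the members 0.08), against 18.8% and 15.6% of all probe sets (median 0.03). BMP15, an oocyte growth factor, rose by 0.38 ± 0.07 (SE, adjusted p = 1.61e-04, higher in 21 of 27 cows), and the bone morphogenetic protein BMP2 by 0.25 ± 0.08 (adjusted p = 0.0129, 19 cows). Both were dim, with period I means of 2.24 and 2.15. BMP2 was not called with the array name prefix in the fit (adjusted p = 0.144), within the first prefix (0.584) or with array number (0.532), nor was BMP15 within the first prefix (0.0812) or with array number (0.0671). The growth factor TGFB2 had a change of 0.36 ± 0.14 that did not pass (adjusted p = 0.0557), and INHBB, the activin B subunit, one of 0.13 ± 0.05 (adjusted p = 0.0704).

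Among 8 other extracellular binding proteins, 1 rose and 0 fell (list median with FST 0.15), against 18.8% and 15.6% of all probe sets (median 0.03). LTBP2, a matrix protein of the latent TGF-beta binding family, rose by 0.19 ± 0.06 (adjusted p = 0.0116, 20 of 27 cows). It was dim, with a period I mean of 2.26. With array number as a covariate its change was 0.06 and was not called (adjusted p = 0.790). FSTL3, a follistatin relative that also binds activin and myostatin, had a change of -0.07 ± 0.06 (adjusted p = 0.406). FSTL1, a more distant relative, had -0.19 ± 0.12 (adjusted p = 0.208, and 0.0278 without the 6 cows). The BMP binding protein BMPER had 0.15 ± 0.07 (adjusted p = 0.124). The difference between these genes and FST was not tested.

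Among 9 other receptors and co-receptors, 2 rose and 2 fell (list median with ACVR2B 0.03), against 18.8% and 15.6% of all probe sets. ACVR2A, the other activin type II receptor, rose by 0.20 ± 0.07 (adjusted p = 0.0315, 19 of 27 cows) and BMPR1B, a BMP type I receptor, by 0.24 ± 0.08 (adjusted p = 0.0173, 21 cows). Both were dim, with period I means of 2.44 and 2.30. ACVR2A did not pass without the cow in the fit (adjusted p = 0.0576) or with the prefix (0.242), and BMPR1B did not with array number (0.314). The endothelial co-receptor ENG fell by 1.44 ± 0.20 (adjusted p = 5.06e-06, lower in 26 cows), and its type I receptor partner ACVRL1 by 0.34 ± 0.06 (adjusted p = 1.00e-04, lower in 23). Of 9 endothelial markers, ENG among them, 4 were called lower and 0 higher, against 15.6% and 18.8% of all probe sets. The list median was -0.26, against 0.03 for all probe sets, and the part of these markers in these falls was not tested. With array number as a covariate, in the fit without the cow, the ENG change was 1.14, the opposite direction. That of ACVRL1 was -0.05 (adjusted p = 0.834), and ACVRL1 was not called with the prefix either (adjusted p = 0.184).

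Of 3 measured SMADs and regulators 0 rose and 0 fell (limma, adjusted p from 0.346 to 0.808, and 0 of 3 at an unadjusted p under 0.05). SMAD2, which carries the activin signal, had -0.07 ± 0.18, its partner SMAD4 -0.07 ± 0.08, and the deubiquitinase USP15 0.11 ± 0.09. Among 12 textbook targets 1 rose and 3 fell (list median -0.06), against 18.8% and 15.6% of all probe sets (median 0.03). ID2, an inhibitor of differentiation, fell by 0.71 ± 0.12 (adjusted p = 4.92e-05, lower in 22 of 27 cows). PMEPA1, which restrains SMAD signalling, fell by 0.79 ± 0.10 (adjusted p = 2.73e-06, 25 cows), and the AP-1 gene JUNB by 0.59 ± 0.11 (adjusted p = 2.01e-04, 21 cows). With array number as a covariate the PMEPA1 change was 0.03, and JUNB was not called with the prefix (adjusted p = 0.107).

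The target that rose was FSHB, the pituitary hormone subunit that activin raises (0.20 ± 0.05, adjusted p = 0.00254, 22 of 27 cows), at a period I mean of 1.38, and it was not called with array number (adjusted p = 0.228). The other 8 targets did not pass. FURIN, the protease that cleaves precursors of this family and the 1 processing enzyme measured, fell by 0.36 ± 0.06 (adjusted p = 8.19e-05, lower in 24 cows), at a mean of 1.39 in period I. FURIN was not called with the prefix in the fit (adjusted p = 0.169), within either prefix (0.0938 and 0.154) or with array number, where its change was -0.14 (0.464).

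**Figure D5:**
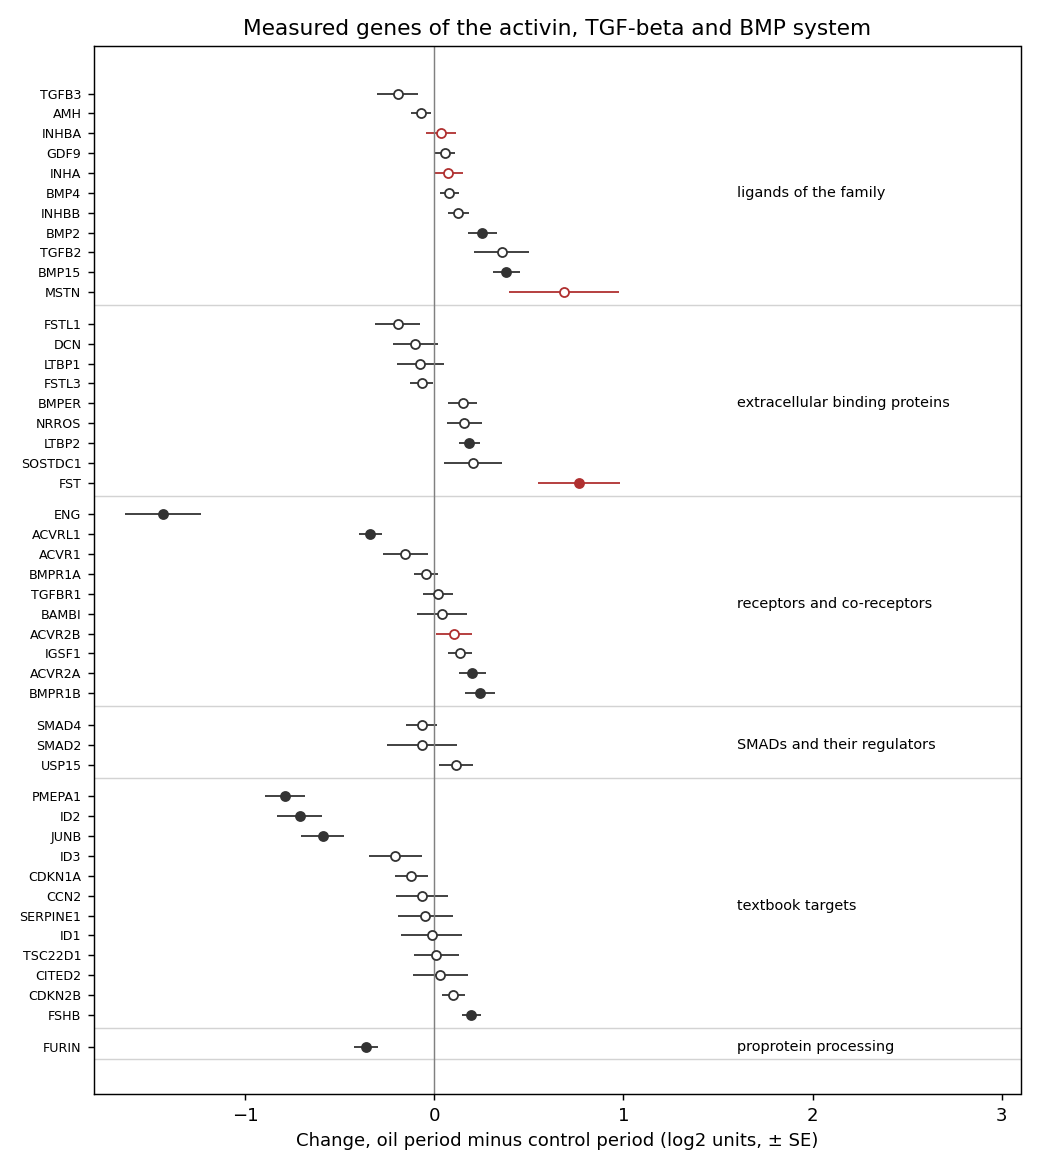
Change from the control to the oil period (log2 units, with SE, horizontal axis) for the measured genes of the system, grouped by list. Filled points were called at an adjusted p under 0.05 and red marks the 5 followed genes. ENG (-1.44) lies farthest to the left and FST (0.76) farthest to the right.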

How the data were processed

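Total RNA from mammary biopsies was extracted with Trizol and hybridised as biotin-labelled cRNA to Affymetrix arrays, per the labels' protocols. The deposited table holds 1 linear intensity per probe set and array, already normalized by the authors. RMA and GCRMA are named in the submitters' processing notes, without a role for either, and the genome build is not given in the sources used here. Array medians ran from 9.47 to 12.1.

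Intensities were converted to log2 here. The 112 control probe sets were dropped and 703 identical rows merged, leaving 10680 probe sets, of which those of 6636 genes could be named through RefSeq transcripts (table of ARS-UCD2.0, names only). limma 3.58.1 in R 4.3.3 was fitted to all probe sets with the cow as a block and Benjamini-Hochberg adjustment over all of them, with a call at an adjusted p under 0.05. Changes are period I minus period II. SEs of changes come from this fit. F tests compared the change between oils, the diets within period I and the former diets within period II. The pairing rests on the animal, which gave both biopsies, and deviations from group means correlated with a median of 0.176 within cows (over 0.1 in 17 of 27) and 0.0085 between cows. Correlations used 100000 permutations, two-sided. The methods were tested on simulated data.

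The members, gene lists and marker lists were chosen with earlier results of these data known, and 1 gene of the target list is not reported here and was left out of its counts. Genes were named by rule: the 5 members, the 3 genes of each list with the smallest p and every called one, and the 3 most similar in change to each member. INHBB, FSTL1 and FSTL3, relatives of the members, were added after their values were seen. Alternatives were no block, other normalizations, the array name prefix or number, leaving out the cows with an array apart, brighter probe sets alone and another variance prior. The fits with array number and those within a prefix were made without the cow, so their changes are not paired. Array number nearly follows the period, so lost calls and reversals in that fit cannot be assigned to either. The number of arrays limits the precision.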

Additional observations from a re-analysis of the deposited data

Results flagged for a closer look

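Each group of 4 to 10 cows was searched for a single cow far from the others, in 40 groups of levels and changes, where chance gives about 1 in 20, and 3 values stood out. The FST level of cow 5 on linseed oil was 3.80 in period I, under the range of 5.56 to 6.86 of the other 6 cows, and that array was among those that stood apart. The FST change of cow 15 on linseed oil was 4.01, above the range of -0.21 to 0.67 of the other 5 cows, and its control array stood apart. The MSTN level of cow 27 on rapeseed oil was 5.29 in period I, above the range of 2.53 to 3.49 of the other 6 cows, and neither of its arrays stood apart.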

How the results depend on the processing

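Over 10 alternatives, 204 of 215 values of the 5 members' changes moved by less than the spread between cows, and 11 moved by more. That spread is the SD of the changes of single cows, which is wider than the SE of a mean change. The count therefore cannot show that the changes were stable. Among the 204 are the MSTN change within prefix 2 and the FST change on linseed oil without the 6 cows, both far under their main values. Of the called values 0 changed sign, and 108 of 108 F tests stayed on their side of the threshold. The 11 include 9 for single oils: on rapeseed oil ACVR2B (-0.0023) with the prefix; on soybean oil INHBA (0.53) and ACVR2B (-1.07) within prefix 1 and INHBA (-0.10) within prefix 2; on the mixture FST (1.83), MSTN (1.52) and ACVR2B (-0.63) within prefix 1 and MSTN (-2.13) and INHA (0.37) within prefix 2. Fits of a single oil within a prefix rest on a single control array (prefix 1) or a single oil array (prefix 2). The average ACVR2B change was -0.43 with the prefix added and -0.73 within prefix 1. Of the 5 members, 2 were called for oil against control with arrays centred on their medians (FST and MSTN), 0 with the prefix added, 0 within either prefix and 0 with array number as a covariate. On soybean oil 0 were called within either prefix or with array number. Leaving out the replicate block cannot move a mean change over the same cows, so the FST change stayed at 0.76. Its SE went from 0.22 to 0.27, and FST was called in both. Fits without the block, with brighter probe sets alone or with another variance prior keep the change by construction and are among the 204. Without the block ACVR2A alone of the 17 named pathway genes lost its call. Probe sets called for oil against control numbered 3669, and 1645 with the prefix added, 572 within prefix 1, 403 within prefix 2, 819 with array number and 1825 among brighter probe sets. For rapeseed oil (414) they were 157 without the block, 76 with the prefix and 0 with array number. For soybean oil (1443) they were 418 within prefix 1, 20 within prefix 2, 15 with array number and 858 among brighter ones. For linseed oil (138) they were 27 without the block, 78 after quantile normalization, 51 within prefix 2, 23 with array number and 53 without the 6 cows. For the mixture (16) they were 28 after quantile normalization, 102 with the prefix, 40 within prefix 1, 85 within prefix 2, 1 with array number, 67 without the 6 cows, 7 among brighter ones and 28 with a trended robust prior. Of the calls, 54.62% were higher on oil, 71.87% after median centring, 45.97% among brighter probe sets and 35.14% within prefix 1. The 41 pathway genes gave 11 higher and 6 lower after median centring, 4 and 4 with the prefix, 0 and 1 within prefix 1 and 2 and 0 within prefix 2. Of the 17 named pathway genes, calls were lost by 5 with the prefix, 11 within prefix 1, 10 within prefix 2 and, beside ENG and PMEPA1, 7 with array number. Changes among the 17 that reversed were TGFB2 (-0.55) and BMPER (-0.12) within prefix 2, ENG (1.14) and PMEPA1 (0.034) with array number, USP15 within prefix 1 (-0.083) and with array number (-0.32), and SMAD2 with the prefix (0.22), within prefix 2 (0.22), with array number (0.20) and without the 6 cows (0.035). Of the relatives named beside them, INHBB had -0.19 and FSTL1 0.12 within prefix 2, and FSTL3 had 0.04 within prefix 1 and 0.11 with array number, all opposite to their main values. The cause was not tested. Each member had 1 probe set, so no other probe set could be tried, rapeseed oil could not be fitted within a prefix nor linseed oil within prefix 1, and FST was the 1 member among the brighter probe sets.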

Other observations

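Cow 28, on linseed oil, had no control array and enters no change. Its log2 intensities in period I were 6.52 for FST, 2.20 for MSTN, 2.11 for INHBA, 2.12 for INHA and 2.63 for ACVR2B.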
